A study of Mus musculus and Homo sapiens with 54 samples.

Results

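The human data on monoubiquitinated histone H2B (H2BK120ub1) comprised 1 list of genomic intervals from HCT116 cells, an epithelial line from a colon carcinoma. Of its 93123 intervals, the 93107 on chromosomes 1 to 22 and X were analysed, in hg38 coordinates. Each was laid over the bodies of the 18339 protein-coding genes of GENCODE 44 that are longer than 3 kb, and for every gene the share of the body covered was taken, from annotated start to annotated end. Genes with 0 bp covered are called bare, genes covered over less than 50% of the body partly covered, and genes covered over 50% or more most covered.

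The cells were wildtype HCT116, grown in DMEM with serum. The series has 54 samples, of which 4 are H2BK120ub1 ChIP-seq libraries of HCT116, namely 2 replicates of untreated cells and 2 of cells given triptolide at 10 uM for 20 min. Triptolide is a fast inhibitor of transcription initiation. Untreated means without triptolide here, and the paper names DMSO as the control in its HCT116 triptolide experiment. There, triptolide was added 10 min before a pulse of EdU, which labels newly replicated DNA. The sample titles carry T0, the label for collection straight after that pulse. Input libraries exist for both conditions (2 each), and 2 H2A.Z libraries exist for untreated cells. The sources used here do not say which of the H2BK120ub1 libraries entered the list, so untreated and triptolide-treated cells were not compared. An interval had to be found in each replicate used, and the list holds no score, no signal and no value per replicate. Sequencing depth cannot be read from the list. All counts and shares below are therefore descriptions of 1 list, with no test and no replicate error.

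H2BK120ub1 is placed on nucleosomes of transcribed genes. The RNF20 and RNF40 ubiquitin ligase, with the conjugating enzymes UBE2A and UBE2B, is brought to elongating RNA polymerase II by the PAF1 complex, and deubiquitinases such as USP22 of the SAGA complex remove the mark. The mark is known for its association with the FACT histone chaperone and for stimulating methylation of histone H3 by DOT1L. H2A.Z, a variant of histone H2A, sits in contrast mainly in nucleosomes beside the transcription start site (TSS).

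Promoters of genes at both ends of the coverage scale are shown first, because the rule did not use promoter sequence and its CpG content differed between covered and bare genes in the medians given below. Each line runs from 140 bases before the TSS of the canonical transcript to 10 bases after it, 5′ to 3′ on the strand of the gene, in hg38. Capitals mark CpG dinucleotides. SREBF1 (chr17:17836977-17837126, minus strand) encodes the master regulator of lipid synthesis and EEF2 (chr19:3985454-3985603, minus strand) the translocase of translation elongation, and both genes were covered over 100% of the body.
SREBF1: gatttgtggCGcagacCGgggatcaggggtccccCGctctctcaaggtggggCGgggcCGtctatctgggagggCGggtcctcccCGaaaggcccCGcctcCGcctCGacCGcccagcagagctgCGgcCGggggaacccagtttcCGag
EEF2: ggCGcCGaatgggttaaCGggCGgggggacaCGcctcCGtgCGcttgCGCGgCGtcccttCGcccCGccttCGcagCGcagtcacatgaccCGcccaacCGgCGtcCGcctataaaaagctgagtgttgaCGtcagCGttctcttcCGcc
ALB (chr4:73404147-73404296, plus strand) encodes serum albumin of hepatocytes and RBFOX1 (chr16:6018884-6019033, plus strand) a neuronal splicing regulator, and both were bare.
ALB: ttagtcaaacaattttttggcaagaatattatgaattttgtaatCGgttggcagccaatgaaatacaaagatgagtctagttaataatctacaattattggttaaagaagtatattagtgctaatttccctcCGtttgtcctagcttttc
RBFOX1: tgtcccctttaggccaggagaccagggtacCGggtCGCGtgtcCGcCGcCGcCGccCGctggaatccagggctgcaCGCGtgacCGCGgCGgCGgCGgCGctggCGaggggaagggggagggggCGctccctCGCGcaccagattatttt
In these 150 bases SREBF1 had 14 CpGs and EEF2 21, while ALB had 2. RBFOX1 had 20 CpGs and was bare all the same, so the letters of a promoter did not by themselves sort these 4 genes.

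The intervals were mostly short, but long ones carried a large part of the covered sequence. The median interval was 621 bp wide, 50% of intervals lay between 303 and 1644 bp, and the widest measured 267499 bp. The 63.0% of intervals narrower than 1 kb held 13.8% of the covered length, whereas the 3067 intervals over 10 kb held 34.9%. In all, 175.6 Mb were covered. Nearly every interval, 88837 of 93107 (95.4%), overlapped a protein-coding gene over 3 kb, and 13.0% of the length of these gene bodies was covered. The smallest gap between neighbours was 501 bp, since neighbours within 500 bp had been merged in making the list. A gene with a continuous mark can therefore appear as several pieces, and widths depend on that merging distance.

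Of the 18339 genes, 8921 (48.6%) were bare, 6328 (34.5%) were partly covered and 3090 (16.8%) were most covered. These 3 shares are the background for every group of genes below. Among the 9418 covered genes the median share was 28.1% (quartiles 7.74% and 61.1%), and 626 of them were covered over less than 1% of the body. At the other end, 643 genes were covered over 90% or more, 346 of them by 1 interval, and 21 genes were covered completely. No gap in the distribution marked the border of 50%: 687 genes had shares from 40% to under 50% and 664 from 50% to under 60%. SOCS4, a member of the suppressor of cytokine signalling family, lay just inside at 50%, and CEP68, a centrosomal protein gene, just outside at 49.99%.

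Gene length went with class in a curve. Among genes of 3 to 10 kb, 64.2% were bare and 17.3% most covered. Bare genes were 51.1% of those of 10 to 30 kb, 40.1% of those of 30 to 100 kb and 38.5% of those of 100 to 300 kb, and again 61.8% of the 823 genes over 300 kb. In this longest class 27 genes (3.28%) were most covered. The amount of covered sequence in a covered gene rose from a median of 2.67 kb in genes of 3 to 10 kb to 28.2 kb in genes of 100 to 300 kb and was 28.4 kb in longer ones, while the share fell from 47.2% to 17.9% and 6.55%.

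Genes whose sequence occurs more than once in the reference were nearly all bare, and the counts of bare genes below hold such genes where this is said. For each gene, words of 31 bases were taken every 100 bp and looked up on the assembled chromosomes and on the 261 alternate scaffolds of hg38, which repeat parts of the chromosomes in other versions. In 1198 genes 50% or more of the words occurred elsewhere, and 1127 of these (94.1%) were bare, none was most covered, and 43 (3.59%) had an H2A.Z peak within 1 kb of the TSS. Of the 606 genes with 90% or more of their words on alternate scaffolds, 605 were bare. Among the other 17141 genes, 7794 (45.5%) were bare, 6257 (36.5%) partly covered and 3090 (18.0%) most covered, and 56.5% had H2A.Z at the TSS. The same split was seen inside genes. In the 57 covered genes with 25% or more of their words on alternate scaffolds, 28.2% of the words that occur once lay in an interval, against 1.24% of the words shared with a scaffold. According to the methods, multiply mapping reads were discarded, and 10 intervals of the list lie on alternate scaffolds of hg38, so that the reference used for mapping held these scaffolds. Some of these genes belong to families that were bare without shared sequence too, such as the olfactory receptors, of which 163 of 166 without it were bare. The part of the mapping in the bare calls was not tested.

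A further 6 intervals lie on 3 scaffolds that are not in the reference used here. In addition, 3352 stretches of 100 kb or more held no interval of either the H2BK120ub1 or the H2A.Z list. Of these, 13 each contained 6 or more genes with a CpG-rich promoter and sequence that is not shared. This limit was set after the data were seen. The 13 stretches contained 200 genes, of which 131 had such a promoter and sequence. The genes named here were picked from the 131. They include POLR2A (the largest subunit of RNA polymerase II), EIF5A (a translation factor) and RPL7A (a ribosomal protein). Others are HNRNPL and HNRNPH1 (RNA-binding proteins), CANX (calnexin, a chaperone of the endoplasmic reticulum) and ACTN4 (an actin crosslinker). The stretch with POLR2A ran from 7242438 to 7548230 on chromosome 17 and held 22 genes, and that with RPL7A from 133168232 to 133509261 on chromosome 9 and held 13. Whether scaffolds absent from the reference used here hold these sequences was not tested. Every gene in the 13 stretches is bare by their definition, so lying in one is no separate observation about a bare gene.

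The genes with the largest share were covered from end to end by a single interval. The longest of the 21 genes at 100% included ENSG00000288715, SREBF1, ARGLU1, ZNF121, ENSG00000288593, ENSG00000288678, BCAN, BUD23, DUSP5, TXN, EEF2, ERVFRD-1, OR51I2, LRRTM2, ENSG00000289653, YRDC, LRRC4, RPL18 and P2RY11. Some had an interval that followed their own start and end, and others lay under the interval of a larger or neighbouring gene. ARGLU1 (26.5 kb), a splicing-associated protein gene, was spanned by an interval of 29.3 kb that began 67 bp before its start and ended 2775 bp past its end and touched no other coding gene. TXN, encoding the redox protein thioredoxin, was spanned by 13.7 kb that began 9 bp before the start. SREBF1 was spanned by 29.2 kb that also reached RAI1, a neighbouring gene on the opposite strand that overlaps it. EEF2 was spanned by 10.4 kb from 30 bp before its start, and RPL18, a ribosomal protein gene, by 4.21 kb from 16 bp before its start, which also touched FAM83E on the same strand. BCAN, the gene of the brain proteoglycan brevican, was covered by an interval of 19.1 kb with no other coding gene under it. ZNF121, a zinc finger gene of 24.2 kb, and DUSP5, a phosphatase of ERK signalling, were likewise spanned by intervals that touched no other coding gene, of 24.4 and 30.5 kb.

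The other set shows how the rule counts nested genes, since the list has no strand. LRRTM2, which encodes a postsynaptic adhesion protein, lies inside CTNNA1 (alpha-catenin of adherens junctions) on the opposite strand, and the interval that spans it extended 12.9 kb before its start and 16.9 kb past its end. LRRC4, a synaptic protein gene, lies inside SND1 on the opposite strand and under an interval of 62.8 kb. OR51I2, an olfactory receptor gene, lies in the beta-globin region under an interval of 17.8 kb that touched 4 other coding genes as annotated, namely HBG2, HBE1, OR51B5 and ENSG00000239920. ENSG00000288715, at 101.2 kb the longest gene at 100%, lies inside ANKRD11, a chromatin regulator gene, on the same strand. P2RY11, a purinergic receptor gene, shared its interval with PPAN, a ribosome biogenesis gene. Across all genes, 1123 most covered genes (36.3%) overlapped another coding gene and 149 lay wholly inside one, against 2446 (27.4%) and 485 of the bare genes and 2852 (45.1%) and 250 of the partly covered ones.

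Long genes could be covered almost throughout. SND1, which encodes a tudor-domain RNA-binding nuclease, had 15 intervals over 440.4 kb that covered 96.1% of the body, the longest of them 144.2 kb. MED13L, a subunit of the Mediator kinase module, was covered over 96.2% of 319.8 kb, ZFAND3, a zinc finger protein gene, over 93.3% of 334.9 kb, and PTK2, the focal adhesion kinase gene, over 86.8% of 344.3 kb. MSI2, an RNA-binding regulator of translation, was covered over 82.5% of 428.8 kb. The most covered base pairs in 1 gene were in AGAP1, a GTPase-activating protein of endosomal traffic, whose 145 intervals covered 70.3% of 637.8 kb. By covered base pairs AGAP1 was followed by SND1, MAGI1, PTPRG, MSI2, ZFAND3, MED13L, RPTOR, PTK2 and TRAPPC9, of which TRAPPC9, a subunit of a vesicle tethering complex, was covered over 38.4% of 730.9 kb and so counted as partly covered.

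The 10 longest most covered genes differed in how the mark was broken up. PTPRG, a receptor tyrosine phosphatase gene of 736.0 kb, had 196 pieces with a median of 0.848 kb and a longest piece of 18.4 kb, while the median piece of SND1 measured 12.5 kb. In most of them the pieces thinned out toward the end of the gene. AGAP1 was covered over 87.5% of the first 50% of its body and 53.1% of the remainder. CUX1, a homeobox transcription factor gene, went from 80.4% to 24.7%, ARID1B, a subunit of the BAF remodelling complex, from 87.8% to 38.6%, and RPTOR, the Raptor subunit of mTORC1, from 96.5% to 48.9%. SND1 (98.4% and 93.9%) and MSI2 (84.2% and 80.9%) were covered nearly evenly. RERE, a transcriptional corepressor gene, was the exception among the 10, with 47.0% in the first part and 60.1% in the second, and its first covered base lay 34.3 kb from the annotated start.

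The widest interval of the list held no protein-coding gene. It measured 267.5 kb on chromosome 8 and lay in PVT1, a long non-coding RNA gene next to MYC. The next widest were an interval of 165.9 kb in SEPTIN9, a septin cytoskeleton gene covered over 87.5%, of 160.7 kb in ANKRD11 (98.5%), of 144.2 kb in SND1 and of 140.1 kb in AGAP1.

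In covered genes the mark began mostly inside the gene and not before it. Genes entered only if some of the body was covered, so the contrast between body and flanks follows in part from that choice. The sources do not say whether libraries of triptolide-treated cells entered the list. The paper reports that H2BK120ub1 close to the TSS was the most sensitive to triptolide in HCT116. Whether this bears on the positions given here was not tested. The position was read from genes with no other coding gene within 10 kb, so that a neighbour could not supply the coverage. Among 592 such covered genes of 20 to 50 kb, 0.553% of bases were covered in the last 500 bp before the TSS, 15.4% in the first 500 bp after it, 44.8% at 1 to 1.5 kb and 54.3% at 2 to 2.5 kb, with a maximum of 56.5% at 4.5 to 5 kb. In 507 genes of 50 to 100 kb the maximum was 51.3%, at 6.5 to 7 kb, and in 753 genes over 100 kb it was 40.3%, at 6 to 6.5 kb. At 1 to 1.5 kb coverage stood at 35.1% and 25.2% in these 2 longer classes, whose maxima were lower too. After the rise, coverage declined along the body in all 3 length classes. With the body divided into 10 equal parts, it fell from 55.2% in the part from 10% to 20% of the way to 24.5% in the last for genes of 20 to 50 kb, from 46.6% to 22.1% for genes of 50 to 100 kb and from 36.7% to 13.3% for longer genes. At the gene end coverage did not drop at once. The first 500 bp past the end were covered to 17.7%, 13.4% and 7.16% in the 3 classes and the bin at 5 to 5.5 kb past the end to 3.24%, 3.16% and 2.33%.

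In the 2239 covered genes of any length above 3 kb with no coding gene within 10 kb, the annotated start itself was covered in 13 (0.581%). The first covered base lay at a median of 1611 bp from the start (quartiles 506 and 5769 bp). Its median was 516 bp in the 792 most covered genes and 2938 bp in the 1447 partly covered ones. The classes are cut from the same coverage, so this difference, and those by class in the gene end and the first exon given next, follow in part from the rule and are descriptions. Over all 18339 genes 365 starts (1.99%) were covered, and among genes that overlap no other coding gene 69 of 11918 (0.579%). The gene end was covered more often than the start, in 330 of the 2239 genes (14.7%) and in 271 of the 792 most covered ones (34.2%), where the interval continued for a median of 1044 bp. In the 2214 of these genes with 2 or more exons the first covered base fell in the first intron in 62.5%, in the first exon in 17.6% and further in in 16.9%. Among most covered genes it fell in the first exon in 38.4%. In the 9346 covered genes with 2 or more exons, first exons were covered to 14.5%, inner exons to 35.9%, introns to 28.8% and last exons to 25.1% of their length. Lengths were pooled over genes, so long genes, whose covered share was lower, weigh more in the introns. Exons and introns were not compared within genes.

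Genes of RNA processing and of the rapid transcriptional response had the largest shares of most covered members among the 51 lists and families examined. Of 27 genes of nuclear speckle and SR splicing factors, 22 were most covered, against 16.8% of all genes, and the median share was 95.8%. SRSF4 (99.8% of 34.2 kb), SRSF3 (98.5%) and SRSF1 (98.1%) encode SR proteins that bind splicing enhancers, TRA2B (99.6%) and TRA2A (99.5%) SR-like splicing activators, SRRM2 (99.5%) and SON (96.6%) scaffold proteins of speckles, and SF3B1 (98.2%) the core of the SF3b complex. SRSF3, SRSF4 and SON were each covered by 1 interval. SF3A3 (37.7%), SRSF9 (21.5%) and SRSF5 (10.7%) were partly covered. The 2 bare members, PRPF8 and U2AF1, had 100% and 95.9% of their words elsewhere in the genome. Of 21 hnRNP genes, whose products package nascent RNA, 15 were most covered (median 80.9%), among them HNRNPAB (99.7%), HNRNPM (99.5%) and HNRNPC (97.8%). Of the 4 bare ones, HNRNPH1 and HNRNPL lay in the empty stretches named above, and HNRNPR and HNRNPA1L3 did not.

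All 17 immediate early genes were covered and 14 were most covered, with a median of 90.8%. FOS (99.3%), FOSB (98.4%) and FOSL2 (91.4%) encode AP-1 subunits, EGR1 (93.8%) and EGR3 (90.9%) zinc finger activators, KLF6 (97.8%) a Krüppel-like factor, DUSP1 (94.4%) a MAP kinase phosphatase and BTG2 (96.6%) an antiproliferative protein, and each of these was covered by 1 interval. FOSB lies wholly inside ERCC1, another coding gene, so its coverage cannot be assigned to either gene. MYC stood at 76.2%, JUN at 65.3% and KLF4 at 52.7%. NR4A1 (49.1%), IER2 (43.8%) and ATF3 (21.5%) were partly covered, and ATF3 had 1 interval over a body of 55.4 kb.

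The translation and protein turnover machinery was also mostly covered. Of 70 cytosolic ribosomal protein genes, 49 were most covered and 6 bare (median 83.6%), with RPL18 at 100%, RPL5 and RPS6 at 99.8%, RPS3A at 99.2% and RPL13 at 99.2%. Among the bare ones, 3 (RPS18 and RPS9 among them) had shared sequence and RPL7A lay in an empty stretch, which is bare by definition. The others were RPL39L and RPL3L, copies expressed mainly in testis and muscle. Of 53 genes named as translation initiation factors 27 were most covered (median 66.7%), such as EIF4G1 (98.7%), the scaffold of the cap-binding complex, and EIF4A3 (98.9%), which belongs to the exon junction complex. Of 20 aminoacyl-tRNA synthetases 11 were most covered and the 2 bare ones, VARS1 and CARS1, had 100% and 94.0% of their words elsewhere. Of 43 proteasome genes 28 were most covered (median 66.0%), with PSMB7 at 99.9% and PSMB1 at 99.3%, and among the 8 bare ones PSMB8 and PSMB9, catalytic subunits of the immunoproteasome in the major histocompatibility complex (MHC), and PSMB3 had shared sequence and PSME2 lay in an empty stretch. Mitochondrial ribosomal proteins (29 of 68 most covered, median 40.5%) and subunits of NADH dehydrogenase (12 of 36, median 29.3%) were more often partly covered than most covered, with 33 and 20 partly covered.

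Genes of the enzymes that place the mark were themselves covered, as were most of those that remove it. WAC, an adaptor of the H2B ligase, was covered over 98.3% of 90.6 kb, UBE2B over 82.5%, RNF40 over 71.3%, RNF20 over 13.0% and UBE2A over 10.3%. The annotated UBE2A gene spans 116.3 kb, and its first covered base lay 71106 bp from the annotated start. UBE2A, RNF40 and all 6 genes of the PAF1 complex overlap other coding genes, and where they overlap coverage cannot be assigned to either gene. In the PAF1 complex CDC73 (81.1%), PAF1 (74.1%) and SKIC8 (72.0%) were most covered and LEO1 (47.9%), RTF1 (37.5%) and CTR9 (27.8%) partly covered. Of 10 H2B deubiquitinase and SAGA module genes 6 were most covered, with USP22 at 96.4% and USP7 at 83.3%, and USP44 was bare. Of 20 elongation factors 13 were most covered (median 67.1%). These included the P-TEFb subunits CCNT1 (96.1%), CCNT2 (95.8%) and CDK9 (88.0%), the FACT subunits SSRP1 (87.7%) and SUPT16H (76.3%), the H3K79 methyltransferase DOT1L (85.6%) and the H3K36 methyltransferase SETD2 (82.3%). The 1 bare member was NELFE, a subunit of the pausing factor NELF, which lies in the MHC and had 100% of its words on other sequences. Of 11 RNA polymerase II subunits 6 were most covered, with POLR2D at 99.0%, while POLR2A and POLR2G were bare. Of 29 Mediator subunits 16 were most covered (median 52.9%), and all 21 nucleoporins were covered, 11 of them over 50% or more.

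Replication, repair and chromatin genes spread over the whole range. Of 26 genes of the replicative helicase and polymerases 12 were most covered. The MCM helicase subunits MCM7 (94.3%), MCM2 (92.8%), MCM3 (92.4%), MCM4 (84.6%), MCM5 (73.5%) and MCM6 (54.7%) were all above 50%, whereas the polymerase alpha subunits POLA1 (14.1%) and POLA2 (1.65%) and the primase subunit PRIM2 (2.79%, with 62.6% of its words elsewhere) were low and PRIM1 was bare. No mismatch repair gene was most covered. Of 8 such genes 7 were partly covered. MSH6 had 20.6%, PMS1 18.5% and MSH3 4.57%, and PMS2, with 55.8% of its words elsewhere, was bare. Of 29 Polycomb genes 11 were most covered, including EZH2 (92.8%), the H3K27 methyltransferase, RNF2 (72.4%), the H2A ligase RING1B, and BAP1 (92.5%), which removes H2A ubiquitin. EED (34.7%) and SUZ12 (15.4%) were partly covered, and of the 6 bare members RING1, PHF1 and PCGF2 had shared sequence. Histone chaperones were most covered in 6 of 12, with NASP at 90.2% and CHAF1A at 83.4%.

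Cell cycle genes were mostly partly covered, 21 of 31. MKI67 (92.3%) and CCND1 (94.7%), encoding a proliferation antigen and cyclin D1, were near complete, CDK1 stood at 78.1% and RB1, a gene of 295.7 kb, at 3.999%, and the cyclin E genes CCNE1 and CCNE2 were bare. In glycolysis the most covered were ENO1 (96.99%), ALDOA (90.2%), PKM (89.99%) and GAPDH (79.9%). Of the 5 bare genes of glycolysis, PKLR encodes a liver form, ENO2 and ALDOC neuronal forms, and LDHA lactate dehydrogenase A. LDHA had 24.5% of its words elsewhere, and PKLR 100%. In cholesterol synthesis 6 of 21 genes were most covered, among them HMGCS1 (83.0%), which makes the precursor HMG-CoA.

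Marker genes of the labelled cell type were covered about as often as any gene, and more often than the markers of other cell types given below. Whether coverage bears on the label was not tested. Of 27 colon and epithelial markers 15 (55.6%) were bare and 5 (18.5%) most covered, against 48.6% and 16.8% of all genes. The 5 were the simple keratins KRT18 (82.6%) and KRT19 (63.5%), ELF3 (68.2%), an epithelial transcription factor, and the splicing regulators ESRP2 (58.4%) and ESRP1 (55.9%). CDX2 (35.8%), the intestinal homeobox factor, CDH1 (24.3%), encoding E-cadherin, EPCAM (17.2%), KRT8 (14.9%), GRHL2 (10.6%), CLDN4 (5.72%) and VIL1 (0.0497%) were partly covered. Markers of differentiated colonocytes and goblet cells, such as CA1, SLC26A3, FABP1, GPA33, MUC2 and KRT20, were bare, the last 2 in shared sequence, as were HNF4A, a transcription factor of gut and liver, and CLDN7, which lay in an empty stretch. In WNT signalling, with 7 of 16 genes most covered, TCF7L2 (98.96% of 217.4 kb), the main WNT effector of the gut, and the target genes CCND1, CD44 (90.9%) and SOX9 (67.8%) were most covered, while AXIN2, LGR5, NKD1, NOTUM, TNFRSF19 and LEF1 were bare. Markers of other cell types were nearly all bare. None of 14 haematopoietic markers, such as CD3E and SPI1, had an interval (1, PTPRC, in shared sequence), 12 of 13 hepatocyte markers and 12 of 14 muscle markers were bare, and 14 of 16 mesenchymal and endothelial markers were bare, with COL1A1 at 65.7% and ZEB1, a regulator of epithelial-mesenchymal transition, at 0.343% as the other two. Of 15 neuronal markers 12 were bare, and GRIN2B, an NMDA receptor subunit, and SYT1, a synaptic calcium sensor, had 28.0% of 544.1 kb and 18.9% of 588.0 kb covered, in 80 and 169 intervals.

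Families known for narrow tissue expression were mostly bare. All 52 clustered protocadherins, which give neurons their surface identity, were bare, and none had shared sequence. Of these 52 genes, 39 overlap another coding gene as annotated, and overlapping bodies hold the same bare sequence. Of 200 olfactory receptor genes over 3 kb 197 were bare, 34 of them with shared sequence, and the 3 covered ones, OR51I2, OR51M1 (88.8%) and OR51B5 (75.8%), all lay in the beta-globin region. Bare were also 59 of 64 chemokines and interleukins, 50 of 55 keratins (12 with shared sequence), 24 of 26 MAGE genes (8 with shared sequence), 49 of 56 cytochrome P450 enzymes, 33 of 39 GABA and glutamate receptor subunits, 20 of 23 cadherins, 28 of 34 serpins, 54 of 67 homeobox genes outside the HOX clusters and 35 of 44 collagens. The members with the largest shares in 5 of these families were as follows. CYP51A1 (45.0%) is the P450 enzyme of cholesterol synthesis, SERPINH1 (60.3%) a collagen chaperone, GRINA (74.8%) a gene that shares the name but not the structure of glutamate receptors, ISL2 (93.4%) a homeobox gene of motor neurons, and MAGED1 (62.6%) a ubiquitously expressed MAGE gene. GRINA lies wholly inside PARP10, another coding gene, so its coverage cannot be assigned to either gene.

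Families of mixed function were split. Of 504 ZNF genes 250 (49.6%) were bare and 74 most covered, close to the 48.6% and 16.8% of all genes, with ZNF121 (100%), ZNF317 (99.5%) and ZNF622 (98.9%) at the top. Of 356 solute carriers 207 were bare, and the 35 most covered included SLC20A1 (99.6%), a phosphate carrier, SLC38A2 (94.5%) and SLC1A5 (87.4%), amino acid carriers, and SLC7A1 (93.4%), a cationic amino acid carrier. Of 36 forkhead genes 24 were bare while FOXK2 (93.4%), FOXK1 (91.1%) and FOXO3 (90.5%) were most covered. In the HOX clusters 18 of 28 genes were bare although 22 had an H2A.Z peak at the TSS, and HOXB6 (73.1%) and HOXB3 (65.0%) were most covered. Of the 28 HOX genes, 17 overlap another coding gene, and there coverage cannot be assigned to either gene. Of 50 ubiquitin-specific proteases 31 were partly covered. DEAD and DEAH box helicases (25 of 52 most covered) ranged from DHX15 (99.9%) to 11 bare genes, of which DHX16, DDX39B, DDX24 and DDX52 had shared sequence. Of 91 potassium channels 67 were bare, with KCNK5 (88.8%) and KCNK1 (80.8%), both leak channels, above the rest.

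The longest bare genes measured over 1 Mb each. RBFOX1 (2.47 Mb), CNTNAP2 (2.31 Mb), PTPRD (2.299 Mb), DMD (2.24 Mb), DLG2 (2.17 Mb), CSMD1 (2.06 Mb), MACROD2 (2.06 Mb), CTNNA3 (1.85 Mb), PCDH15, ROBO2, NRXN3, PDE4D, AGBL4 and GPC5 (1.48 Mb) had no interval at all. DMD encodes dystrophin, CNTNAP2 a neurexin family protein, DLG2 a postsynaptic scaffold and NRXN3 a neurexin. Of these genes, DLG2, MACROD2, CTNNA3 and NRXN3 had an H2A.Z peak at the annotated start. Of 25 large genes at common fragile sites 16 were bare. Of the other 9, most held little: WWOX, an oxidoreductase gene of 1113 kb, had 0.214%, FHIT, a gene of 1504 kb for a nucleotide hydrolase, 0.864% in 43 intervals, and LRP1B, a lipoprotein receptor gene of 1900 kb, 0.171% in 15. Exceptions were PTPRG, at 51.5%, and EXOC4, an exocyst subunit gene, at 24.2% of 813.5 kb in 202 intervals.

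The longest partly covered genes were long genes with traces of coverage. EYS (1987 kb), LRP1B, DAB1 (1552 kb), FHIT, CCSER1, NAALADL2 and PRKG1 were each covered over less than 1%. DAB1, an adaptor of reelin signalling, had 1 interval that covered 0.00193% of the body, and CCSER1 1 interval with 0.00535%. EYS, DAB1, ENSG00000250349 (0.948% of 1338 kb), PRKG1 and TBC1D5 overlap other coding genes, and there coverage cannot be assigned to either gene. IL1RAPL1, a synaptic receptor gene on the X chromosome, had 2.79% of 1369 kb in 99 intervals, and TBC1D5, a regulator of endosomal sorting, 5.54% of 1288 kb in 110. Such genes join the class by the rule that 1 bp suffices. With intervals of at least 1000 bp, 6 of these 10 genes were still partly covered. With coverage of less than 500 bp counted as bare, 779 genes would pass from the covered to the bare class.

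Promoter composition and H2A.Z, which the rule did not use, differed between the classes. In the window from 250 bp before to 50 bp after the canonical TSS, most covered genes had a median of 30 CpGs (quartiles 23 and 38), partly covered genes 28 (20 and 36) and bare genes 15 (5 and 28). The GC content was 67.3%, 67.0% and 60.3%. Promoters with an observed to expected CpG ratio of 0.6 or more and 55% GC or more, called CpG-rich here, made up 89.1% of most covered, 81.2% of partly covered and 45.5% of bare genes, and 5 CpGs or fewer were found in 1.57%, 4.43% and 28.8%. Leaving out bare genes with shared sequence gave 46.2% CpG-rich. The GC content of whole gene bodies differed less, with medians of 44.9%, 43.9% and 45.1% in most covered, partly covered and bare genes. Within partly covered genes with 1000 bp or more on both sides, covered stretches had the higher GC content in 3410 of 4982 genes, with a median difference of 1.33 percentage points, whereas in most covered genes they had it in 1213 of 2630, with a median difference of -0.37 points.

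An H2A.Z peak lay within 1 kb of the TSS in 64.7% of most covered, 72.0% of partly covered and 35.5% of bare genes. The order was not the same as that of coverage, since most covered genes had H2A.Z less often than partly covered ones. Taking CpG content and H2A.Z together, in genes without shared sequence, 25.3% of the 7532 genes with a CpG-rich promoter and H2A.Z were bare and 24.0% most covered. Without H2A.Z, 44.7% of 3694 CpG-rich genes were bare and 24.9% most covered. Among CpG-rich genes the most covered share was thus much the same with and without H2A.Z, and the difference lay between the partly covered and the bare. Of the 2019 genes with H2A.Z but no CpG-rich promoter, 60.1% were bare and 8.82% most covered. Of the 3600 genes with neither, 81.2% were bare and 4.31% most covered. Among the speckle and SR genes 12 of 27 had H2A.Z at the TSS, among hnRNP genes 6 of 21 and among cytosolic ribosomal proteins 24 of 70, against 26 of 31 cell cycle genes, whose median share was 34.2%, and 53.1% of all genes. H2A.Z was read from its own list, likewise without a score.

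Along the chromosomes the X chromosome stood apart, with 67.5% of its 739 genes bare and 4.87% most covered. On the autosomes the bare share ranged from 41.0% on chromosome 20 to 54.6% on chromosome 6, and the most covered share from 12.6% on chromosome 6 to 23.5% on chromosome 20. Bare genes formed long runs. The longest held 159 neighbouring genes from PGBD1 to ZBTB9 over 5.18 Mb of chromosome 6, the region of the MHC, and 151 of them had shared sequence. It contained genes that most cells use, such as TUBB (a tubulin), ABCF1 (a translation factor) and DAXX (a histone chaperone), beside the HLA genes. The next runs held 69 genes from AGPAT5 to MICU3 on chromosome 8 (36 with shared sequence), 53 from GAS2L2 to C17orf98 on chromosome 17 (51), 44 on chromosome 19 (40), which include the LILR and KIR receptor genes, and 37 from GNRHR to JCHAIN on chromosome 4 (6), which include UGT2B enzymes, caseins and salivary proteins. H2A.Z was scarce there too, with a peak at the TSS of 1 of the 159 genes, 1 of the 69, none of the 53, 2 of the 44 and 1 of the 37. Runs of most covered genes were short, with 8 genes at most, from CRAMP1 to IGFALS on chromosome 16 and from PDAP1 to ZNF394 on chromosome 7.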

How the data were processed

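ChIP-seq of crosslinked HCT116 chromatin with a Drosophila spike-in was processed by the authors. Per the submitters' processing notes and the methods, reads were trimmed (Trim Galore 0.0.6), aligned with Bowtie2 2.4.2 to hg38, restricted to uniquely mapping reads and freed of duplicates (Picard 2.26.10). Broad peaks were called per replicate with MACS2 2.2.6 over pooled inputs, concatenated, merged within 500 bp, kept if found in every replicate and filtered against a blacklist. The deposited list has 3 columns (chromosome, start, end), so its values are positions in bp and not a signal or count. Of the 7 deposited lists, the H2BK120ub1 and H2A.Z lists of HCT116 were used and the others were not used here. The list gives no depth, the read numbers that the study lists elsewhere were not used here, and no error was attached to a share.

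Gene bodies, canonical transcripts and exons came from GENCODE 44, and sequences from hg38. Coverage was computed with Python 3.11.15, numpy 2.4.6 and pandas 2.3.3, and the code was tested on simulated data. Words of 31 bases every 100 bp of each gene were counted on the chromosomes and on 261 alternate scaffolds, and a gene with 50% or more of them elsewhere was called shared. An overlap means at least 1 bp. Genes are named by rule: the 20 of largest share, the 10 with the most covered bp, the 10 longest most covered, the 15 longest bare and 10 longest partly covered, the 5 widest intervals, the ends of the 5 longest bare runs, and members of 23 lists and 28 families. Other names (CANX, ACTN4, TUBB, ABCF1, SOCS4, CEP68 and genes that share an interval with a named gene) were chosen after values were seen. Some genes and sequences that this rule names are not reported here. The members and lists were chosen with earlier results of these data known.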

Additional observations from a re-analysis of the deposited data

How the results depend on the processing

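The classes were recomputed under 13 alternatives and, after the data were seen, without genes of shared sequence. Of 127 recomputed counts, 114 stayed within 1.5 times the value reported. Some of the 114 could not differ. A border of 25% or 75%, or joining neighbours within 500 bp or 2 kb, cannot change which genes over 3 kb are bare. The 8921 bare genes ranged from 6475 (54.3% of 11918 genes that overlap no other coding gene) to 10861 (intervals of at least 1000 bp). With genes that overlap no other coding gene there were 3476 partly covered genes, 1967 most covered genes, 69 covered starts and 4035 covered genes with H2A.Z at the TSS, as 6421 fewer genes were examined. A border of 25% or 75% in place of 50% gave 5000 or 1517 most covered genes, and 24 or 4 in place of 15 lists and families with 50% or more of their members most covered. Intervals of at least 1000 bp left 33406 intervals that overlap a gene. Joining neighbours within 500 bp changed nothing, since all gaps are wider, and joining over gaps of up to 2 kb gave 4234 most covered genes. All 20 genes of largest share remained most covered, apart from those that 2 alternatives leave out, which kept 11 (over 10 kb) and 9 (no overlap). Of the 10 longest partly covered genes, 6 were still partly covered with intervals of at least 1000 bp and 5 among genes without overlap. No paired analysis was possible because the list pools the replicates. Depth limits the bare class in a way the list does not show: an absent interval says that none was called in every replicate, not that the mark is absent.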

Other observations

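Long non-coding RNA genes, which the classes above leave out, carried few intervals of their own. Of 6901 lncRNA genes over 3 kb that overlap no protein-coding gene, 6657 (96.5%) were bare and 35 were most covered, against 366 most covered among 5181 that do overlap one. Several known host and regulatory transcripts stood out. PVT1 was covered over 78.4% of 392.6 kb in 4 intervals, NEAT1, the scaffold of paraspeckles, over 86.1%, SNHG17, a host of small nucleolar RNAs, over 99.3%, MIR34AHG, a microRNA host gene, over 60.5% of 50.9 kb, MIRLET7BHG over 66.7% and MIR222HG over 56.1%. These were chosen after their values were seen.

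The limit of 3 kb left out 1631 short protein-coding genes, of which 292 had an interval and 188 were covered over 50% or more. Of the intervals themselves, 14374 were narrower than 250 bp, 2070 were exactly 250 bp and 700 were narrower than 20 bp, which is less than a nucleosome.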
